A study of Homo sapiens with 6 samples.

Results

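The 31 genes described here encode the path by which glucose is taken up, broken down to pyruvate, exchanged as lactate and admitted to the mitochondrion. They were taken from the table by gene symbol, as a set drawn up with earlier results of these data known. They are the glucose carriers, the glycolytic enzymes with their isozymes, the lactate dehydrogenases and lactate carriers, and the kinases, phosphatase and E1 subunits that act on pyruvate dehydrogenase. All 31 were among the 28058 genes of the table. RNA came from MDA-MB-231, an established human cell line of triple-negative breast adenocarcinoma, in which the cells carried an shRNA against HSF1 (shHSF1, 3 libraries) or a control shRNA (shCTL, 3 libraries). HSF1 is the factor that turns on chaperone genes in response to heat and other protein-damaging stress, and the comparison asked which transcripts differ once it is lowered. Both groups were grown in DMEM that held 10% FBS and P/S, at 21% O2 and 5% CO2. A single line was used, and how many hairpins or clones were used is not given in these sources. In the deposited table each column name carries TGL and cl, abbreviations that the labels leave unexplained, so whether the 3 replicates of a group are separate clones is not known here. Nothing in the labels says that replicates were separate cultures, so p-values reflect the spread from library to library and no more, and that spread may be technical.

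Glycolysis splits a glucose molecule into a pair of pyruvate molecules in the cytosol, with hexokinase, phosphofructokinase and pyruvate kinase as its strongly regulated steps. Pyruvate is then either reduced to lactate by lactate dehydrogenase and exported, or carried into mitochondria and converted to acetyl-CoA by the pyruvate dehydrogenase complex, which PDK kinases switch off and PDP phosphatases switch on. Many cancer cells, those of MDA-MB-231 among them, send much of their glucose to lactate even when oxygen is present, and several steps have isozymes encoded by separate genes, some of them targets of hypoxia-inducible factors (HIF).

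HSF1 itself had 5.01, 4.70 and 3.84 RPKM in the shHSF1 libraries, against 61.2, 53.3 and 47.9 RPKM in the shCTL libraries. On the scale of the tests used here its change was -3.44 (log2, SE 0.123, limma adjusted p = 3.78e-06). RPKM counts reads per kilobase of a gene's length, scaled to 1000000 gene-assigned reads per library. The means were 4.52 ± 0.604 RPKM in shHSF1 and 54.1 ± 6.70 RPKM in shCTL (SD, n = 3 each), and a two-sided exact permutation test gave p = 0.1, which is the smallest p that 20 assignments of the labels allow. Depth was 33988307 to 42615678 gene-assigned reads in shHSF1 and 36737836 to 70449758 in shCTL. All 5 markers of this mesenchymal-like line were present. VIM lay between 1995 and 2209 RPKM in shHSF1 and between 1891 and 1912 RPKM in shCTL, CD44 between 138.6 and 170.5 RPKM in shHSF1 and between 92.1 and 114 RPKM in shCTL, and KRT8 overlapped between the groups. KRT18 lay between 171 and 224 RPKM in shHSF1 and between 263 and 305 RPKM in shCTL, and EGFR between 48.6 and 49.7 RPKM in shHSF1 and between 74.85 and 80.55 RPKM in shCTL. The oestrogen receptor gene ESR1 stayed at or below 0.0385 RPKM in shHSF1 and 0.0424 RPKM in shCTL, and PGR, FOXA1, the blood markers PTPRC and CD3E and the endothelial markers CDH5 and PECAM1 were at or under 0.281 RPKM in all libraries. PECAM1 lay between 0.0344 and 0.103 RPKM in shHSF1 and between 0.143 and 0.281 RPKM in shCTL. Of the other marker genes, the luminal gene GATA3 lay between 4.11 and 4.87 RPKM in shHSF1 and between 1.75 and 1.83 RPKM in shCTL, and the fibroblast gene PDGFRB between 0.255 and 0.295 RPKM in shHSF1 and between 0.0554 and 0.170 RPKM in shCTL, while COL1A1 lay between 2.25 and 2.99 RPKM in shHSF1 and between 1.255 and 1.964 RPKM in shCTL. The part of these marker differences in the results was not tested. In bulk RNA, fewer cells that express a gene and less RNA per cell cannot be told apart.

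Of the 31 genes, 29 reached 0.5 RPKM in at least 3 libraries and were tested. With shHSF1, 3 rose (ALDOC, PKM and SLC16A3) and 8 fell (HK2, PFKM, PFKP, PGK1, PDK1, PDK3, PDHB and PDP1), while 18 did not pass. The test was limma on log2(RPKM + 0.5), adjusted over all 12433 tested genes, with a threshold of 0.05, and log2 fold changes are given on that scale, which understates those of low genes. The 11 calls are 37.9% of the tested members, beside 33.8% of all tested genes called in either direction. Over all tested genes 17.7% were called higher and 16.1% lower in shHSF1. The median log2 fold change was -0.10 for the 29 members and 0.04 for all tested genes. The change was negative for 20 of the 29 members, beside 5551 of the 12433 tested genes. The median size of the change was 0.22 for members and 0.23 for all. The groups did not overlap for 14 members, 3 above and 11 below, which is 48.3% beside 47.4% of all tested genes. The share of members that changed and the size of their changes were thus close to those of the whole table. In direction the members leaned lower than the whole table, and that lean was not tested. The split into above and below without overlap was not counted over all tested genes.

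The calls above do not use the replicate numbers, although same-numbered libraries deviated alike from their group means. A model with the number as a block called 5 members higher and 10 lower, adding SLC2A1 and ENO2 above and PFKL and LDHB below. Over all tested genes that model called 3257 higher and 2750 lower, beside 2195 and 2006 without the block. The added calls are to be read beside this rise over the whole table. Leaving out 1 library moved the member counts more. Without shHSF1 3, 6 members were called higher, the added ones being SLC2A1, PFKFB3 and ENO2, beside 2374 of all tested genes. The count of lower member calls was 4 without shHSF1 1, 4 without shHSF1 2 and 6 without shHSF1 3. It was 5 without shCTL 1, 3 without shCTL 2 and 4 without shCTL 3. In the same order, lower calls over all tested genes were 1579, 1531, 1943, 1922, 1588 and 1399, beside 2006 with all libraries. HK2, PFKM, SLC16A3 and PDK3 were called in the same direction under each of the 16 alternatives run. So was ALDOC, but it passed the filter only through its shHSF1 libraries and had to differ, so its place among the rises and its unbroken call carry no weight of their own.

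**Figure D1:**
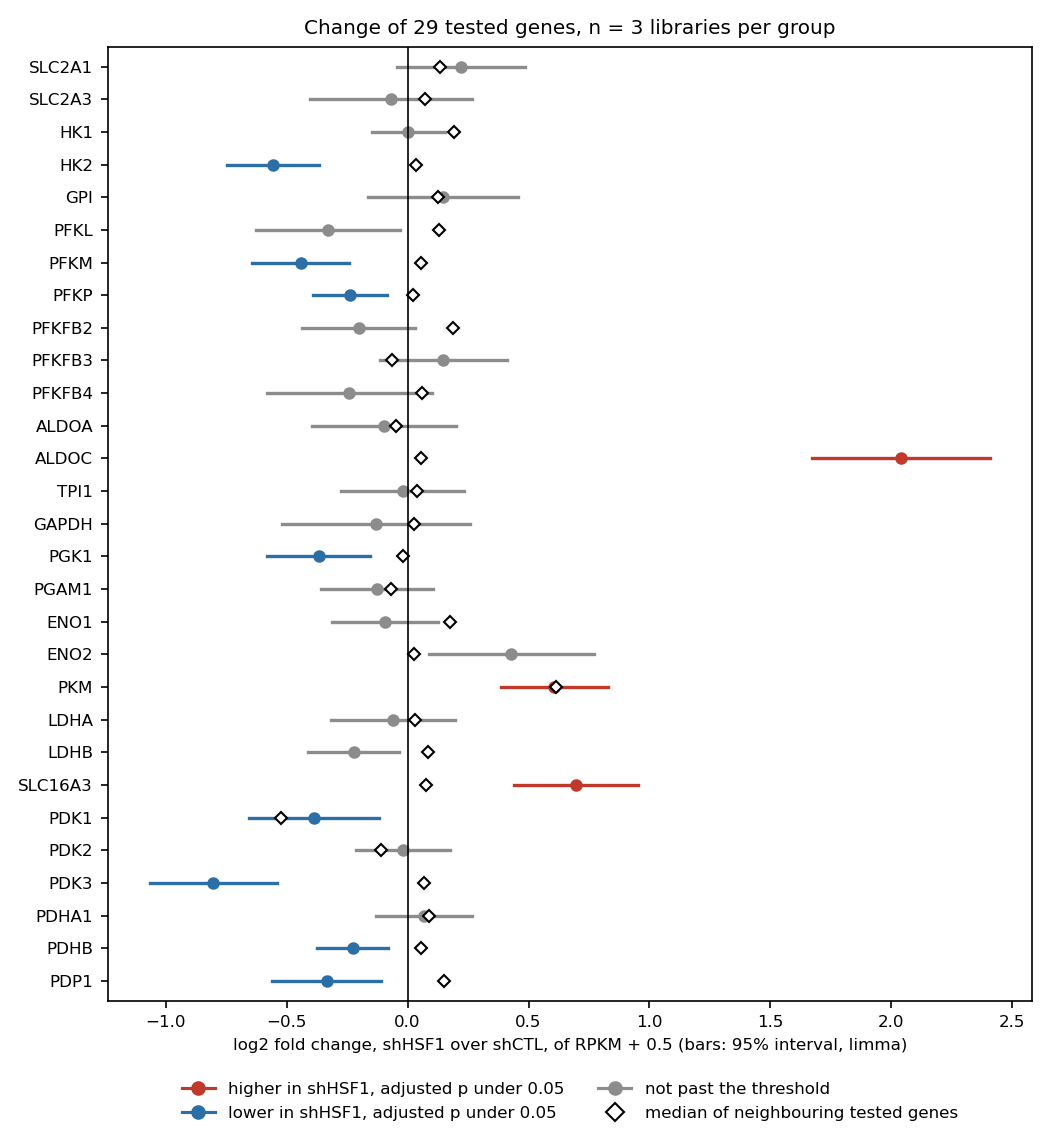
Points show the log2 fold change, shHSF1 over shCTL, of the 29 tested genes in pathway order, with bars for the 95% interval of the limma fit (n = 3 libraries per group) and diamonds for the median change of up to 40 neighbouring genes on the chromosome. ALDOC lies far to the right at 2.04 and PDK3 furthest to the left at -0.80, and the diamonds of PKM and PDK1 lie close to their own points.

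ALDOC, SLC16A3 and PDK3 had the largest changes among the members (log2 fold changes of 2.04, 0.69 and -0.80), and the 250 bases before the start that RefSeq lists for each are shown for their content of motif letters. They are on GRCh38.p14, in transcript direction, 5′ to 3′, at chr17:28576896-28577145 on the minus strand for ALDOC, chr17:82228185-82228434 on the plus strand for SLC16A3 and chrX:24465036-24465285 on the plus strand for PDK3. The gene models of the deposited table begin within each of these windows. Capitals mark every ACGTG or GCGTG on either strand, the core letters that HIF factors are known to bind, and a whole CACGTG where the ACGTG letters on both strands overlap.
ALDOC: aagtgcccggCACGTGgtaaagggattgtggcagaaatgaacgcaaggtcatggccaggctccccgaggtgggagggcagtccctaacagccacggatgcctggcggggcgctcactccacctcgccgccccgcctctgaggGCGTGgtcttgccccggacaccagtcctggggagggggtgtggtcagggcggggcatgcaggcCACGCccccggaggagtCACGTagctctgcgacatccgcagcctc
SLC16A3: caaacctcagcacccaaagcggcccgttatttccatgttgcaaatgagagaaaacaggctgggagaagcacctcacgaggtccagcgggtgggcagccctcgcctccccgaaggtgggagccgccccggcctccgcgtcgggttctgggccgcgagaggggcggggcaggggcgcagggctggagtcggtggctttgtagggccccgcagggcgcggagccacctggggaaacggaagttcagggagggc
PDK3: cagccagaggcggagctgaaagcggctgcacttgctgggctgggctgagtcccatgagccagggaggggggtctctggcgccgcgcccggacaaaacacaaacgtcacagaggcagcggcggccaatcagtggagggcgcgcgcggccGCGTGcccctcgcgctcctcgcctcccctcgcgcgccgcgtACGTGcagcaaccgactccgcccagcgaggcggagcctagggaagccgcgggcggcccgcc
The ALDOC window held 1 CACGTG, then GCGTG once on each strand and, nearest to the start, ACGTG on the other strand. The PDK3 window held 1 ACGTG and 1 GCGTG, and the SLC16A3 window held neither. The windows were picked by size of change, and ALDOC had to differ once it was tested. No relation between these letters and the direction of change can therefore be read from them.

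Windows of the same length were found for 27 of the 31 members, with none for SLC2A3, PFKFB2, SLC16A1 and PDP1, and for 27303 promoters in all. On either strand ACGTG stood in 10 member windows (37.0%), beside 18.7% of all promoters. GCGTG stood in 10 member windows as well (37.0%), beside 31.9% of all. CACGTG, whose letters include ACGTG, stood in 4 (ALDOC, GAPDH, LDHA and PDHB, 14.8%), beside 6.49% of all. GAANNTTC, a pair of inverted units of the heat shock element that HSF1 binds, was found only before PGK1 among the members (3.70%), beside 5.85% of all promoters. Only this order of the inverted units was searched, within these windows, so the other members may hold heat shock elements of another form. Of the genes with ACGTG letters, ALDOC, which had to differ, rose, HK2, PGK1, PDK3 and PDHB fell, and GPI, ALDOA, GAPDH, ENO2 and LDHA did not pass the test.

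**Figure D2:**
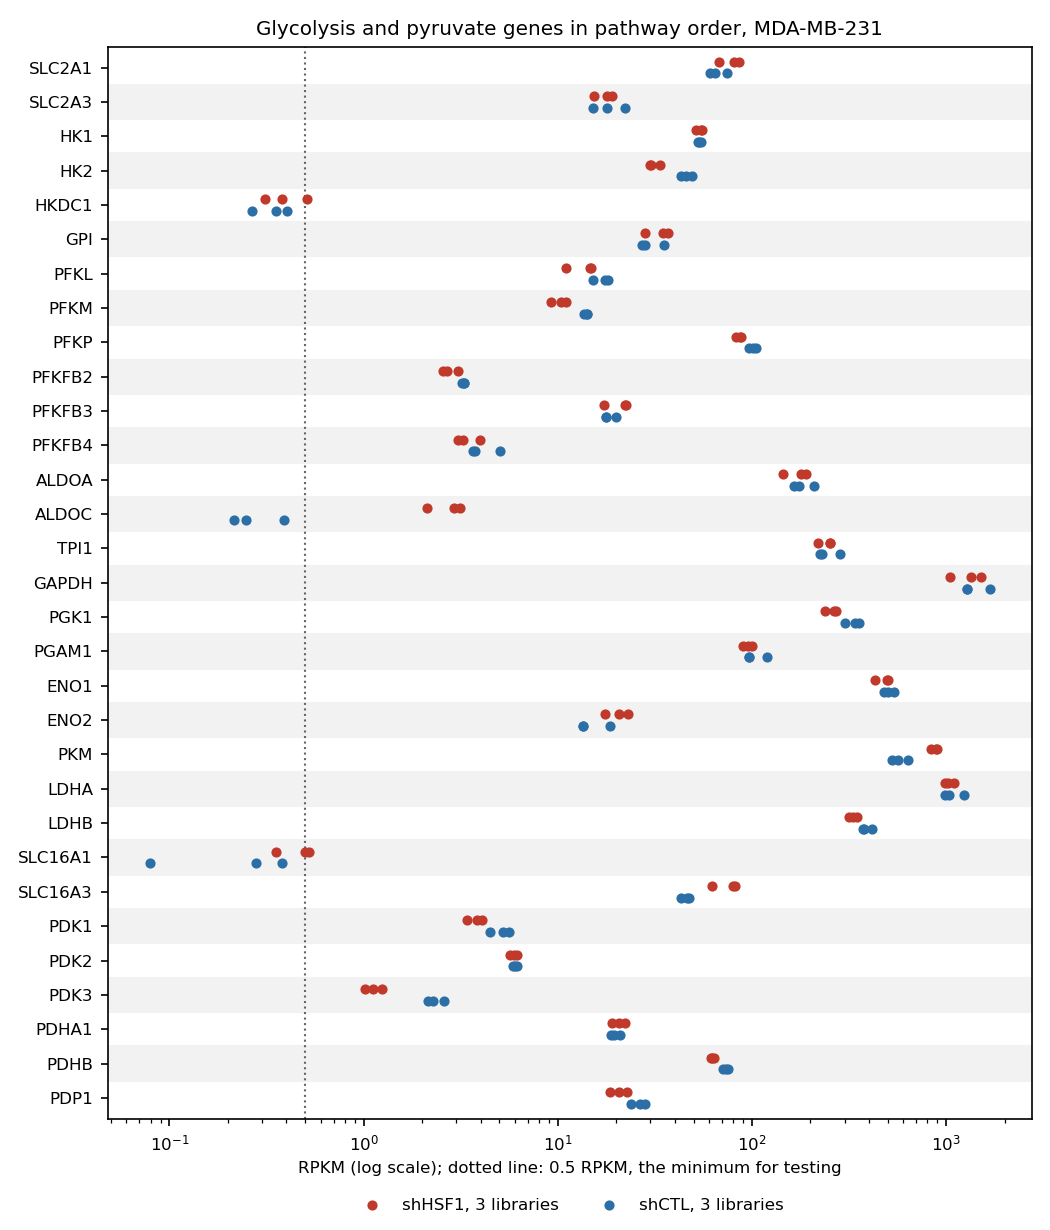
Each row is a gene in pathway order and each point a library, on a log scale of RPKM, with the dotted line at 0.5 RPKM, the minimum for testing. GAPDH, LDHA and PKM had the highest means in both groups, HKDC1 and SLC16A1 lie near or under the line, and ALDOC shows the widest gap between shHSF1 and shCTL points among the tested genes.

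Glucose uptake did not pass the test at either carrier. SLC2A1 (GLUT1), the basal glucose carrier of most cells, had 80.7, 85.7 and 67.5 RPKM in shHSF1 and 74.8, 64.8 and 60.6 RPKM in shCTL, a log2 fold change of 0.22 (SE 0.114, limma adjusted p = 0.177). With the replicate block SLC2A1 passed, at a limma adjusted p of 0.0375. In each numbered pair the shHSF1 library was the higher one, though the groups overlap. SLC2A3 (GLUT3), a high-affinity carrier, had 15.3, 19.1 and 17.9 RPKM in shHSF1 and 15.2, 22.3 and 17.9 RPKM in shCTL, with a log2 fold change of -0.07 (limma adjusted p = 0.750). SLC2A1 made up 81.6 ± 2.52% of the summed RPKM of the pair in shHSF1 and 78.2 ± 4.42% in shCTL (SD, n = 3 each).

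Hexokinase, which traps glucose in the cell as glucose-6-phosphate, fell at HK2, while HK1 did not pass the test. HK2 (chromosome 2, 74832655 to 74893354, plus strand), the inducible isozyme of many tumours, had 29.9, 33.5 and 30.1 RPKM in shHSF1, against 45.7, 49.4 and 43.1 RPKM in shCTL. The highest shHSF1 library was well under the lowest shCTL library. HK2 fell by 0.56 on the log2 scale (SE 0.0818, limma adjusted p = 0.00179). HK1, the housekeeping isozyme, had 54.9, 51.5 and 55.2 RPKM in shHSF1 and 52.8, 54.9 and 53.5 RPKM in shCTL, and the 95% interval of its log2 fold change ran from -0.15 to 0.15. HKDC1, a weakly expressed relative, was untested, with 172 reads in shHSF1 and 186 in shCTL over 3 libraries each. HK2 thus made up 36.5 ± 2.37% of the summed hexokinase level in shHSF1 and 46.0 ± 1.36% in shCTL, and HK1 63.0 ± 2.48% in shHSF1 and 53.7 ± 1.41% in shCTL (SD, n = 3 each). GPI, which turns glucose-6-phosphate into fructose-6-phosphate, had a log2 fold change of 0.15 (limma adjusted p = 0.448), and its length in the table, 5643 bases, counts exons on an alternate contig beside the 4552 bases on chromosome 19, which lowers its RPKM in all libraries alike.

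Phosphofructokinase, the committed step of glycolysis, was lower in shHSF1 at all 3 subunit genes, PFKM and PFKP passing the test. PFKM (chromosome 12, 48105253 to 48146404, plus strand), the muscle-type subunit, had 10.99, 10.4 and 9.24 RPKM in shHSF1, against 14.2, 14.2 and 13.7 RPKM in shCTL. It fell by 0.44 (log2, SE 0.0867, limma adjusted p = 0.00643). PFKM shares 11.8% of its exon length with SENP1 on the opposite strand, whose level was 10.5 RPKM in shHSF1 and 8.81 RPKM in shCTL, and whether reads were counted by strand is not given in these sources. PFKP, the platelet-type subunit and the most abundant of the 3, had 87.3, 86.4 and 82.7 RPKM in shHSF1 and 105, 101 and 96.7 RPKM in shCTL. Its fall of 0.24 (log2, SE 0.0663, limma adjusted p = 0.0274) did not pass without shHSF1 1, 2 or 3 or without shCTL 1, 2 or 3, where limma adjusted p lay between 0.0504 and 0.0838, or with no mean-variance trend (limma adjusted p = 0.0515). PFKL, the liver-type subunit, had 14.7, 14.7 and 10.99 RPKM in shHSF1 and 17.5, 18.1 and 15.2 RPKM in shCTL, again without overlap, with a log2 fold change of -0.33 (limma adjusted p = 0.0870, and 0.00770 with the block). Their summed level was 109 ± 5.48 RPKM in shHSF1 and 132 ± 5.54 RPKM in shCTL (SD, n = 3 each).

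The 3 PFKFB genes did not pass the test, with unadjusted limma p between 0.0802 and 0.231. They encode the enzymes that make and degrade fructose-2,6-bisphosphate, the strongest activator of phosphofructokinase. PFKFB3, the isozyme with the most kinase-biased activity, had 22.3, 22.3 and 17.4 RPKM in shHSF1 and 19.99, 17.8 and 17.8 RPKM in shCTL (log2 fold change 0.15, limma adjusted p = 0.363). PFKFB2 had 2.70, 3.06 and 2.56 RPKM in shHSF1, all below the 3.29, 3.29 and 3.19 RPKM of shCTL, with a log2 fold change of -0.20 (limma adjusted p = 0.163). For PFKFB4 the groups overlapped, at means of 3.43 ± 0.476 RPKM in shHSF1 and 4.16 ± 0.779 RPKM in shCTL (SD, n = 3 each).

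Aldolase, which splits fructose-1,6-bisphosphate into triose phosphates, showed the largest single change. ALDOC (chromosome 17, 28573115 to 28576933, minus strand, 9 exons), known as the brain-type isozyme, had 2.13, 2.93 and 3.15 RPKM in shHSF1, against 0.215, 0.387 and 0.247 RPKM in shCTL. The lowest shHSF1 library was several times above the highest shCTL library. Group means were 2.74 ± 0.537 RPKM in shHSF1 and 0.283 ± 0.0916 RPKM in shCTL (SD, n = 3 each), a ratio of 9.67, from 514 reads in shHSF1 and 65 in shCTL. All shCTL libraries were under the minimum for testing, so ALDOC entered the test through its shHSF1 libraries alone and had to differ. On the tested scale the rise was 2.04 (SE 0.159, limma adjusted p = 0.000101), and 3.30 with voom on recovered reads, which adds 0.5 read where the other scale adds 0.5 RPKM. Even so ALDOC was a small part of the step, at 1.62 ± 0.516% of the summed aldolase level in shHSF1 and 0.158 ± 0.0593% in shCTL. ALDOA, the main isozyme, had 189.9, 179 and 144 RPKM in shHSF1 and 208, 175 and 164 RPKM in shCTL (log2 fold change -0.10, limma adjusted p = 0.611).

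**Figure D3:**
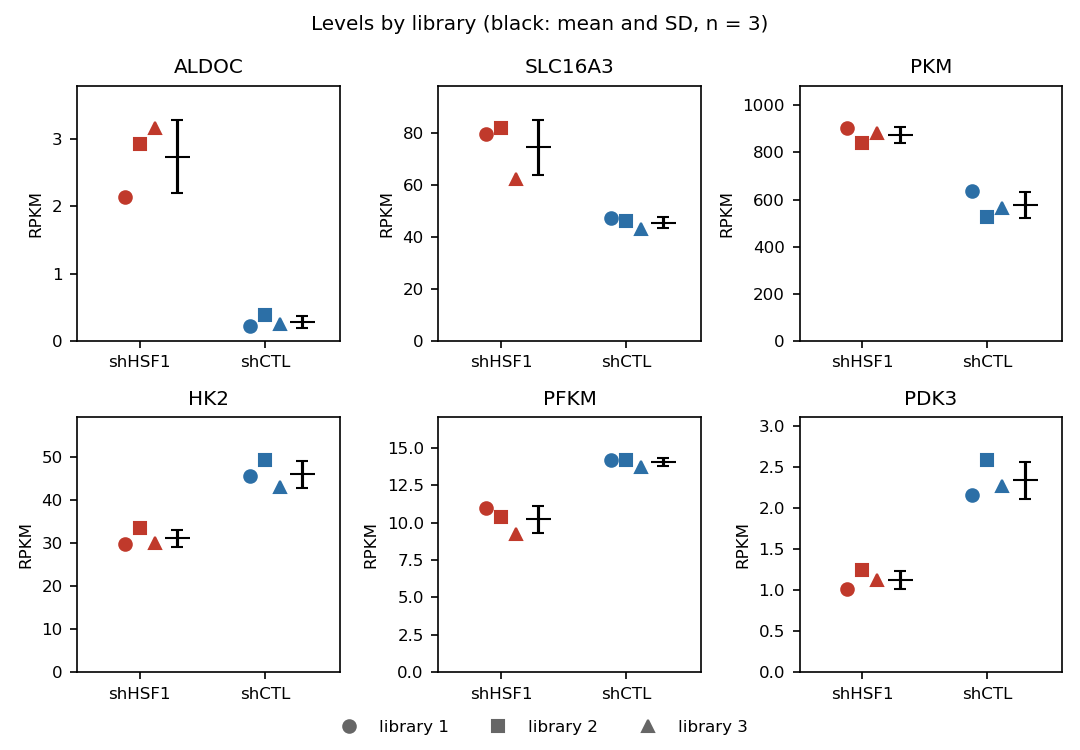
RPKM by library for ALDOC, SLC16A3, PKM, HK2, PFKM and PDK3, with shHSF1 on the left and shCTL on the right of each panel and axes that start at 0. Symbols mark the library number and black bars the mean and SD (n = 3), and in none of the 6 panels do the groups overlap, with means of 2.74 RPKM in shHSF1 and 0.283 RPKM in shCTL for ALDOC.

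From triose phosphate to phosphoenolpyruvate only PGK1 passed the test. PGK1 (chromosome X, 78104169 to 78126827, plus strand), phosphoglycerate kinase, which makes the first ATP of the path, had 264, 271 and 236 RPKM in shHSF1, against 354, 339 and 302 RPKM in shCTL. The groups were apart, and the fall was 0.37 on the log2 scale (SE 0.0920, limma adjusted p = 0.0182). It did not pass under quantile normalization (limma adjusted p = 0.0581) or without shCTL 1 or shCTL 2. GAPDH, the dehydrogenase often used as a reference transcript, had 1505, 1341 and 1042 RPKM in shHSF1 and 1681, 1279 and 1284 RPKM in shCTL. Its highest library was 1.45 times its lowest within shHSF1 and 1.31 times within shCTL, and its change was -0.13 (log2, SE 0.168, limma adjusted p = 0.596). GENCODE lists 62 pseudogenes named after GAPDH, but no entry so named was found among the genes here. Whether reads were lost to such copies could therefore not be counted. TPI1 (triosephosphate isomerase), PGAM1 (phosphoglycerate mutase) and ENO1, the main enolase, had log2 fold changes of -0.02, -0.12 and -0.09 (limma adjusted p = 0.905, 0.382 and 0.494). TPI1 and ENO1 changed sign under quantile normalization. Pseudogene entries named after TPI1 and PGAM1 held reads equal to 0.139% and 0.0123% of those of the genes.

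Enolase had a second isozyme near the threshold. ENO2, the neuron-type enolase, had 20.7, 23.0 and 17.6 RPKM in shHSF1 and 13.4, 18.5 and 13.5 RPKM in shCTL. Only the lowest shHSF1 library fell under the highest shCTL library. ENO2 had a log2 fold change of 0.43 (SE 0.148, limma adjusted p = 0.0576) and passed with the replicate block (limma adjusted p = 0.00405), with median scaling (0.0433) and with voom on recovered reads (0.0345). ENO2 made up 4.11 ± 0.260% of the summed enolase level in shHSF1 and 2.90 ± 0.571% in shCTL (SD, n = 3 each).

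Pyruvate kinase, the last step of glycolysis, rose at PKM (chromosome 15, 72199029 to 72231624, minus strand), whose spliced forms PKM1 and PKM2 the table does not separate. PKM had 902, 839 and 882 RPKM in shHSF1, against 634, 526 and 566 RPKM in shCTL. Every shHSF1 library was above every shCTL library, with means of 874 ± 32.3 RPKM in shHSF1 and 575 ± 54.9 RPKM in shCTL (SD, n = 3 each), a ratio of 1.52. The rise was 0.61 on the log2 scale (SE 0.0951, limma adjusted p = 0.00243). The median log2 fold change of the 40 tested genes nearest to PKM on chromosome 15 was 0.61 as well, and with their median subtracted PKM stood at -0.01 (limma adjusted p = 0.967). The part of this shared shift in the PKM result was not tested further.

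Lactate dehydrogenase interconverts pyruvate and lactate, and neither subunit passed the test. LDHA, the muscle-type subunit, had 1025, 986 and 1101 RPKM in shHSF1 and 1235, 988 and 1034 RPKM in shCTL, with a log2 fold change of -0.06 (95% interval -0.32 to 0.20, limma adjusted p = 0.717) that changed sign under quantile normalization. LDHB, the heart-type subunit, had 349, 332 and 314 RPKM in shHSF1, all under the 414, 371 and 377 RPKM of shCTL (log2 fold change -0.22, limma adjusted p = 0.0702, and 0.0129 with the block). The level of PKM relative to LDHA was 0.880, 0.850 and 0.801 in shHSF1 and 0.514, 0.532 and 0.547 in shCTL.

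Lactate transport rose at SLC16A3 (chromosome 17, 82228406 to 82239499, plus strand), which encodes MCT4, the carrier that exports lactate from highly glycolytic cells. SLC16A3 had 79.6, 81.9 and 62.4 RPKM in shHSF1, against 47.4, 46.3 and 43.1 RPKM in shCTL. The shHSF1 libraries were all above the shCTL libraries, the lowest being shHSF1 3. Means were 74.6 ± 10.6 RPKM in shHSF1 and 45.6 ± 2.19 RPKM in shCTL (SD, n = 3 each), a ratio of 1.64, and the rise was 0.69 on the log2 scale (SE 0.110, limma adjusted p = 0.00259). Its neighbouring genes had a median log2 fold change of 0.08. SLC16A1 (MCT1), the carrier that works in both directions in most cells, reached 0.5 RPKM only in shHSF1 2 and was not tested. It had 0.352, 0.520 and 0.498 RPKM in shHSF1 and 0.0791, 0.378 and 0.280 RPKM in shCTL. SLC16A3 was 99.4% of the summed level of both carriers in shHSF1 and 99.5% in shCTL.

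Of the genes that switch pyruvate dehydrogenase off and on, the kinases PDK1 and PDK3 and the phosphatase PDP1 fell, while PDK2 did not pass the test. PDK3 (chromosome X, 24465227 to 24550466, plus strand), a kinase that inactivates the complex, had 1.01, 1.24 and 1.12 RPKM in shHSF1, against 2.16, 2.59 and 2.27 RPKM in shCTL. The groups were far apart, and PDK3 fell by 0.80 on the log2 scale (SE 0.114, limma adjusted p = 0.00149), the largest fall among the members. PDK1, the kinase best known as a HIF target, had 3.41, 4.07 and 3.84 RPKM in shHSF1 and 4.45, 5.59 and 5.25 RPKM in shCTL, a fall of 0.39 on the log2 scale (SE 0.116, limma adjusted p = 0.0357). Around PDK1 on chromosome 2 the median of the neighbours was -0.52 (log2), and with it subtracted PDK1 stood at 0.14 (limma adjusted p = 0.431). The call of PDK1 was also lost without shHSF1 1, 2 or 3 or without shCTL 2 or 3, at limma adjusted p up to 0.119, and with no filter on low values (limma adjusted p = 0.0708). PDK2, the most abundant of the 3 kinases, had 6.18, 5.69 and 5.92 RPKM in shHSF1 and 6.16, 5.88 and 5.99 RPKM in shCTL (log2 fold change -0.02, 95% interval -0.21 to 0.18). PDK3 was 10.4 ± 0.860% of the summed kinase level in shHSF1 and 17.4 ± 0.907% in shCTL, and PDK2 54.8 ± 3.32% in shHSF1 and 44.8 ± 3.25% in shCTL (SD, n = 3 each).

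PDP1, a phosphatase that reactivates the complex, had 18.6, 20.6 and 22.6 RPKM in shHSF1 and 23.9, 28.0 and 26.4 RPKM in shCTL, a fall of 0.33 on the log2 scale (SE 0.0975, limma adjusted p = 0.0321). PDHB, the beta subunit of the E1 enzyme, had 61.7, 63.7 and 62.1 RPKM in shHSF1 and 75.5, 73.5 and 70.6 RPKM in shCTL, a fall of 0.23 on the log2 scale (SE 0.0634, limma adjusted p = 0.0280). Groups were apart for both genes, but leaving out a library raised the limma adjusted p to as much as 0.102 for PDP1, which was not called without shHSF1 1 or 2 or shCTL 2 or 3. For PDHB it reached 0.0830, and that gene was called only without shHSF1 3 among the 6. PDP1 was also not called with no filter on low values (limma adjusted p = 0.0566), nor PDHB with no mean-variance trend (limma adjusted p = 0.0548). PDHA1, the alpha subunit that the kinases phosphorylate, had 20.8, 19.0 and 22.2 RPKM in shHSF1 and 18.8, 19.4 and 20.8 RPKM in shCTL (log2 fold change 0.07, limma adjusted p = 0.584). PDHA1 shares 27.2% of its exon length with MAP3K15 on the opposite strand, at 1.13 RPKM in shHSF1 and 1.69 RPKM in shCTL.

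**Figure D4:**
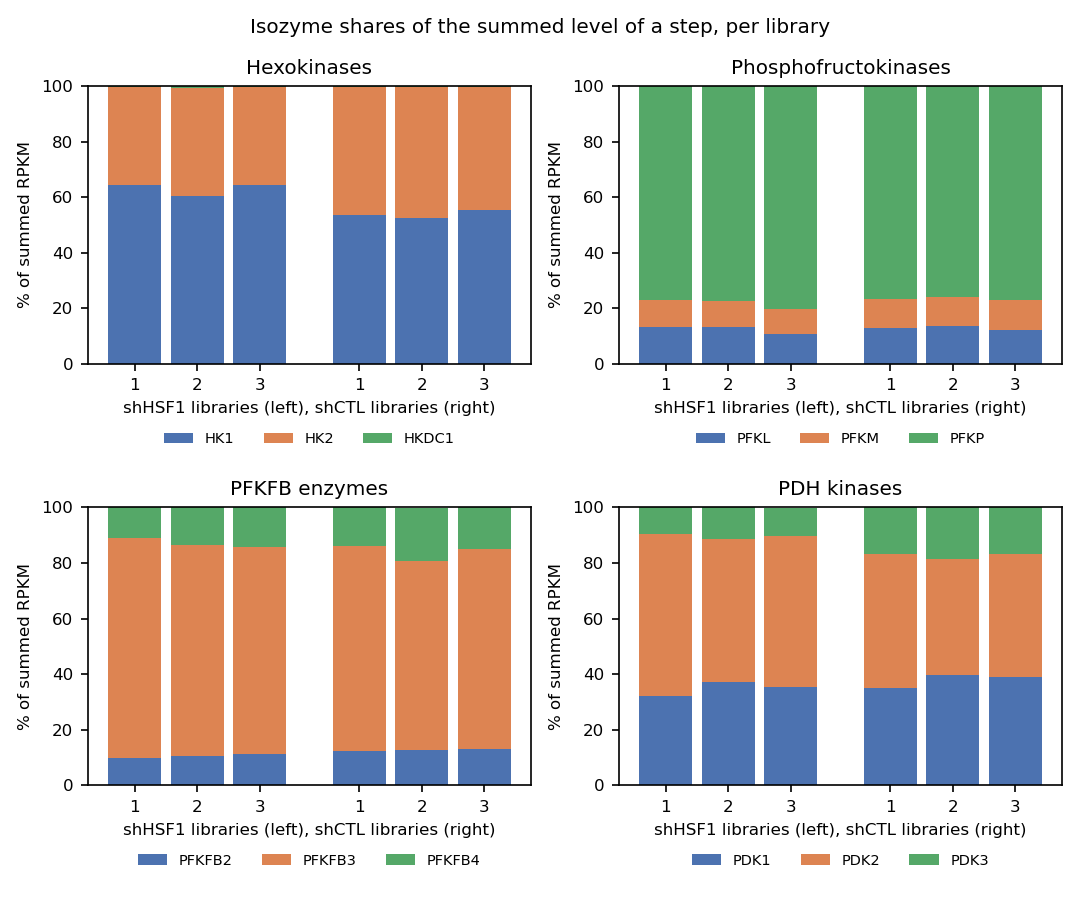
Bars give each isozyme's percentage of the summed RPKM of its step in every library, shHSF1 libraries 1 to 3 on the left and shCTL libraries 1 to 3 on the right of each panel. HK2 was 36.5% in shHSF1 and 46.0% in shCTL on average, and PDK3 10.4% in shHSF1 and 17.4% in shCTL, while PFKP made up 78.4% of the phosphofructokinase level in shHSF1 and 76.5% in shCTL. HKDC1, under 1% in all libraries, is too small to be seen.

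The members took 1.47, 1.41 and 1.32% of gene-assigned reads in the shHSF1 libraries and 1.54, 1.32 and 1.30% in the shCTL libraries, so the groups overlapped. The libraries were uneven for these genes. Within its group, shHSF1 3 was the lowest for 16 of the 29 tested members (46.5% over all tested genes), and shCTL 3 was the lowest for 14 (26.8% over all). Library shCTL 1 was the highest of its group for 17 members (33.1% over all) and shCTL 3 for 1 (25.0% over all).

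Genes of adjoining routes were read from 9 lists holding 95 genes, of which 76 were tested, 15 rose and 16 fell. These calls are 40.8% of the 76, beside 33.8% of all tested genes (17.7% higher and 16.1% lower). Each count below from all 6 libraries without the block is to be read against that share. Counts with the replicate block are to be read against its own calls, 3257 higher and 2750 lower over all 12433 tested genes. Among 11 tested genes of the list named paralogs of glucose transport and glycolysis 3 rose and 2 fell. That list also holds enzymes of nearby reactions that are not paralogs of the members, FBP1 and PGM1 among them. FBP1, the gluconeogenic phosphatase that opposes phosphofructokinase, had 11.3, 13.95 and 11.9 RPKM in shHSF1, against 4.28, 4.29 and 4.82 RPKM in shCTL, a rise of 1.37 on the log2 scale (SE 0.106, limma adjusted p = 9.90e-05). All shHSF1 values were more than double any shCTL value. SLC2A6 (GLUT6), a carrier of internal membranes, had 5.44, 5.62 and 3.44 RPKM in shHSF1 and 1.97, 1.96 and 1.67 RPKM in shCTL (log2 fold change 1.15, limma adjusted p = 0.00227). The third that rose was ADPGK, named after its values were seen, at 0.85 on the log2 scale (limma adjusted p = 0.000893). ADPGK lies on chromosome 15 like PKM, and its neighbours had a median log2 fold change of 0.61. The part of this shared shift in its rise was not tested. The falls were SLC2A12 at -0.53 and PGM1 at -0.30 on the log2 scale. Neither fall passed without shCTL 1, shCTL 2, shCTL 3 or shHSF1 1, and SLC2A12 also not without shHSF1 2 and PGM1 not without shHSF1 3. Both were also lost with no filter on low values, and PGM1 with no mean-variance trend.

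Of 5 tested genes of lactate and pyruvate transport 0 passed limma at an adjusted p of 0.05, 1 had an unadjusted p under 0.05, voom on recovered reads called 0, and the replicate block called 1 higher and 1 lower. The most abundant, BSG, the chaperone that brings lactate carriers to the membrane, had a log2 fold change of 0.14 (limma adjusted p = 0.222). Among 7 tested genes of the pyruvate dehydrogenase complex and pyruvate carboxylation 1 rose and 2 fell. PC, pyruvate carboxylase, which turns pyruvate into oxaloacetate, had 12.9, 14.4 and 10.3 RPKM in shHSF1, against 20.5, 24.4 and 18.5 RPKM in shCTL, a fall of 0.73 on the log2 scale (SE 0.145, limma adjusted p = 0.00665). Each shHSF1 library lay under each shCTL library. DLD, the E3 subunit, rose by 0.31 and DLAT, the E2 subunit, fell by 0.33 on the log2 scale. With the median of its neighbours subtracted, DLAT stood at -0.01. Neither DLD nor DLAT passed without shHSF1 2, shCTL 2 or shCTL 3, DLD also not without shCTL 1 and DLAT not without shHSF1 1.

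In the hexosamine pathway, which makes UDP-GlcNAc for glycosylation, 2 of 8 tested genes rose and 1 fell. GFPT2, an isozyme of its first and rate-limiting enzyme, had 38.7, 32.9 and 30.8 RPKM in shHSF1, against 10.0, 9.55 and 10.4 RPKM in shCTL, a ratio of means of 3.42 and a log2 fold change of 1.72 (SE 0.0973, limma adjusted p = 2.92e-05). PGM3 rose by 0.46 and UAP1, the last enzyme of the route, fell by 0.38 on the log2 scale. In the pentose phosphate pathway RPIA rose by 0.80 and RPE fell by 0.55 on the log2 scale, among 7 tested, and RPE stood at -0.01 with its neighbours' median subtracted. The replicate block called 2 higher and 2 lower in that pathway. Glycogen metabolism had 2 falls among 8 tested, PYGL at -0.38 and PPP1R3C at -0.55 on the log2 scale, and 4 falls with the replicate block. PPP1R3C was called only without shCTL 1 among the 6 libraries left out in turn, and not with no filter on low values. Of 9 tested shuttle genes, which pass cytosolic NADH into mitochondria, SLC25A13 rose by 0.49, and SLC25A12 and GPD1L fell by 0.49 and 0.39 on the log2 scale. GPD1L was not called without shHSF1 1, shHSF1 3, shCTL 2 or shCTL 3. SLC25A12, on chromosome 2 like PDK1, stood at 0.04 with its neighbours' median subtracted.

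HIF1A, the oxygen-regulated factor that drives many glycolysis genes in hypoxia, was named after its values were seen. It did not pass the test, with 116, 128 and 152 RPKM in shHSF1 and 103, 152 and 131 RPKM in shCTL (log2 fold change 0.05, SE 0.155, limma adjusted p = 0.845). Among 7 tested HIF regulators 3 rose, and HIF1AN fell by 0.45 on the log2 scale. EGLN3 rose by 0.61, EPAS1 by 0.58 and VHL, named in the same way as HIF1A, by 0.36 (limma adjusted p = 0.0122). EPAS1 and VHL were not called without shHSF1 2, where 1 of these 7 genes was called higher, beside 1383 of all tested genes. EPAS1 was also not called with no filter on low values (limma adjusted p = 0.0508), nor VHL with the neighbours' median subtracted. HIF targets outside glycolysis moved in both directions, 4 of 15 rising and 6 falling, which is 66.7% called beside 33.8% of all tested genes. MXI1, a MYC antagonist, had 4.49, 5.08 and 5.18 RPKM in shHSF1, against 11.02, 16 and 13.6 RPKM in shCTL (log2 fold change -1.36, limma adjusted p = 0.000333). NDRG1, a stress-induced gene, had 39.2, 49.9 and 49.1 RPKM in shHSF1, against 73.8, 142.9 and 101 RPKM in shCTL (log2 fold change -1.15, limma adjusted p = 0.00584). CA9, a cell-surface carbonic anhydrase, had 0.528, 0.815 and 0.625 RPKM in shHSF1, against 0.0183, 0.198 and 0.0701 RPKM in shCTL (log2 fold change 0.96, limma adjusted p = 0.00299). For MXI1, NDRG1 and CA9 the groups did not overlap, and CA9, under the minimum for testing in every shCTL library, had to differ once it was tested. ADM, the vasodilator peptide adrenomedullin, rose by 0.88 on the log2 scale, which did not pass without shHSF1 1, shHSF1 2, shCTL 2 or shCTL 3. It was also lost with the neighbours' median subtracted (limma adjusted p = 0.0515) and with no filter on low values (limma adjusted p = 0.0853).

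**Figure D5:**
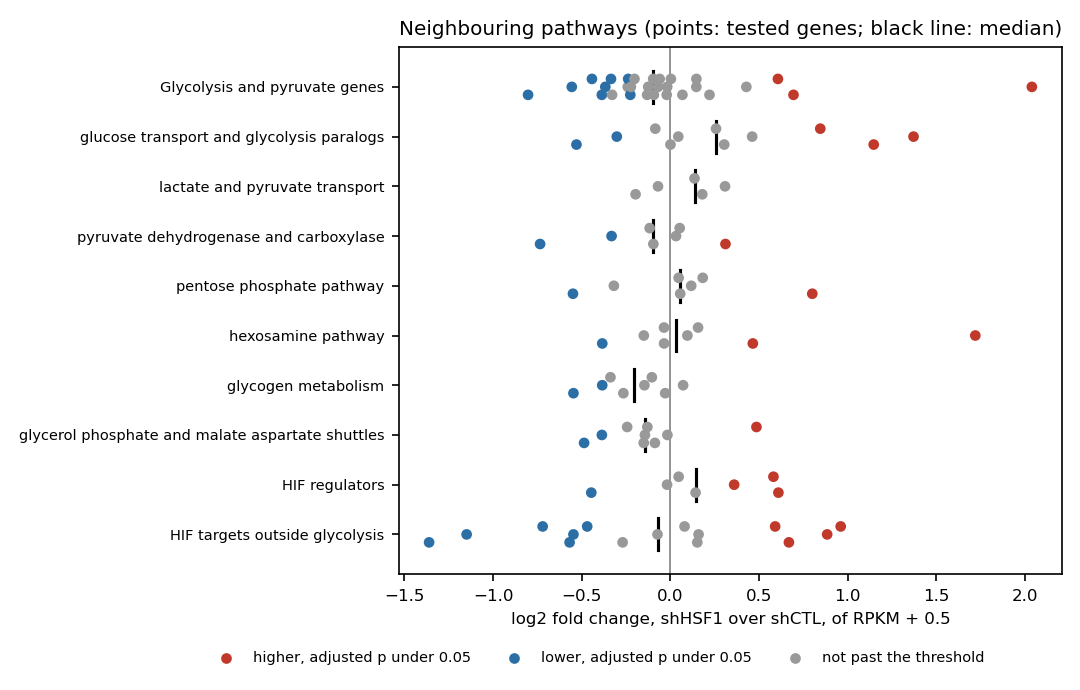
Points are tested genes placed by log2 fold change, shHSF1 over shCTL, with black lines at the median of each list, red for genes called higher, blue for genes called lower and grey for the rest. The median of the glycolysis and pyruvate genes was -0.10 and those of the other lists lay between -0.21 and 0.26, with GFPT2 at 1.72 and MXI1 at -1.36 furthest out among the other lists.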

How the data were processed

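Per the labels' protocols, a KAPA mRNA kit was used on column-purified RNA. The authors deposited RPKM values per gene, and per the submitters' processing notes STAR, featureCounts and the build hg38 were used, without versions in the sources used here. RPKM times gene length in kb summed to 1000000 in each of the 6 columns, and 100% of values were whole reads within 0.01 read. Intervals of fold changes are those of the limma fit and rest on the spread between libraries, while the read floor covers counting error only. The table's shScr columns were taken as shCTL, matched by number.

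Genes that reached 0.5 RPKM in 3 or more libraries entered a two-sided test in limma 3.58.1 (R 4.3.3) on log2(RPKM + 0.5). It used a mean-variance trend, Benjamini-Hochberg adjustment and a threshold of 0.05. The steps were also run on simulated counts, drawn independently for each library with a single fixed spread. That simulation held no pairing by number, so it does not cover the shared deviations given next. Over all tested genes, deviations from group means correlated at 0.468, 0.307 and 0.451 between same-numbered libraries and at -0.37 to -0.02 between others. Over the tested members these values were 0.779, 0.559 and 0.686 between same-numbered libraries and -0.68 to 0.26 between others. On this basis numbers were taken as pairs, but only in the model with the block. No label states what a number marks. The column names also end in S and a running number, which alternates between shScr and shHSF1 in order of the replicate numbers. What that running number stands for is not given either. The model reported has no block unless the block is named. The 16 alternatives were the block, other filters, pseudocounts (0.1 and 1), normalizations and variance models, voom on recovered reads, subtraction of the median of up to 40 neighbouring genes, and leaving out each library.

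All 31 members are named, and from each other list up to 2 genes per direction with the largest change, or the most abundant where none passed. The members and lists were chosen with earlier results of these data known. Figures were drawn with matplotlib 3.10.9. Promoters are from RefSeq.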

Additional observations from a re-analysis of the deposited data

How the results depend on the processing

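Over the 29 tested members and 16 alternatives, 401 of 464 values kept direction and side of the threshold, 27 lost a call without a change of sign, 14 gained one and 22 changed sign. With PKM and PDK1, whose sign changed with the neighbours' median subtracted, 29 values lost a call. Of the 11 called members, 5 kept their call in all alternatives, ALDOC among them, which had to differ, and 6 uncalled members were called in at least 1. With the replicate block 5 members were called higher, beside 3257 of all tested genes. Apart from the added calls of SLC2A1, ENO2, PFKL and LDHB the block changed no other member's call. Leaving out 1 library gave 3 to 6 members called higher and 3 to 6 called lower. Over all tested genes it gave 1383 to 2374 called higher and 1399 to 1943 called lower. With the neighbours' median subtracted, HK1 stood at -0.19, PKM at -0.0077, PDK1 at 0.14, PDK2 at 0.091, PDHA1 at -0.020 and SLC25A12 at 0.036. Under quantile normalization HK1 stood at -0.017, TPI1 at 0.028, ENO1 at 0.0088 and LDHA at 0.083, and under median scaling HK1 at -0.017. Leaving out 1 library gave ranges of -0.20 to 0.070 for SLC2A3, -0.015 to 0.035 for HK1, -0.18 to 0.021 for ALDOA, -0.081 to 0.083 for TPI1, -0.25 to 0.018 for GAPDH, -0.12 to 0.036 for LDHA and -0.046 to 0.0094 for PDK2. These are log2 fold changes, and apart from the subtraction itself the cause was not tested. Among the adjoining lists, the main count of lower calls was 2 for paralogs (1 without a filter or without the trend), 0 for transport (1 with quantile normalization or neighbours subtracted), 2 for pyruvate dehydrogenase and 2 for shuttles (1 each with neighbours subtracted), 1 for pentose phosphate (2 with median scaling or quantile normalization), 1 for hexosamine (2 with neighbours subtracted) and 2 for glycogen (1 with a minimum of 1 RPKM or no filter). Leaving out 1 library gave 0 to 1 lower calls in the list of paralogs and 1 to 3 higher HIF regulators. It moved each other list's counts by at most 2. Depth limits HKDC1, SLC16A1 and ALDOC in shCTL most, where 3 reads in a gene of 1 kb equal 0.0426 to 0.0817 RPKM in shCTL.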
